A study of Mus musculus with 2 samples.

Results

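The genes described here are 44 genes of DNA replication and S phase, taken by symbol from a deposited table of 15576 genes in mouse bone marrow-derived macrophages (BMDMs). They cover origin licensing and the replicative helicase, the polymerases, the sliding clamp and lagging-strand enzymes, nucleotide supply, G1/S regulators and chromatin factors of the fork. Every one of the 44 was found, each under 1 identifier, and all 44 passed the filter used for counts, a mean of 1 or more FPKM (reads per kilobase of gene and per 1e6 reads) over both libraries. The series holds 2 libraries of wild-type BMDMs, macrophages grown in culture from marrow progenitors. One, called DCA, is from macrophages exposed for 24 h to deoxycholic acid at 100 µM, which gut bacteria make from a primary bile acid, and the other, NC, from unexposed macrophages. The sources used here do not give the strain, sex or age of the mice, the growth factor of the culture or a vehicle for NC, and the labels leave unclear whether the cells were collected at the end of those 24 h or a day later. With 1 library in each group, the variation between cultures is unknown, and no difference is tested. Whole reads could be rebuilt from the deposited values, with totals of 56.6 M for DCA and 59.2 M for NC (M for 1e6 reads), and the 44 genes rested on 752 to 16161 reads each. Where a pair of values is given without labels, DCA comes first. Ratios are DCA over NC, and their 95% intervals cover counting error only.

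Before each division a cell loads the MCM2 to MCM7 ring onto its origins with the help of CDC6 and CDT1. At the start of S phase CDC45 and the GINS complex turn that ring into a working helicase, polymerase alpha-primase lays down the primers, and polymerases delta and epsilon extend them on the PCNA clamp. E2F transcription factors drive most of these genes at the passage from G1 to S, so their transcripts mark cycling cells. Marrow progenitors divide while they become macrophages in culture, and mature macrophages largely leave the cycle.

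Most of the replication genes had nearly the same level in the DCA and NC libraries. The genes of the MCM ring other than Mcm7, the clamp gene Pcna, the ligase gene Lig1 and E2f1 were lower in DCA, by 3 to 14%, while all 4 genes of polymerase alpha-primase were higher, by 2 to 15%. Gins1 and Cdc45 were lower as well, by 20.9 and 11.6%, and Gins3, Gins4 and Dut higher, by 14.6, 12.8 and 11.9%. A single gene, Fen1, was about 3-fold lower, and most of its exonic sequence is shared with an antisense gene. Of the 44 genes, 28 (63.6%) were lower in DCA and 16 higher, against 46.5% lower and 53.5% higher among all 9656 genes that passed the filter. The median FPKM ratio of the 44 was 0.978 (interquartile range 0.940 to 1.01), beside 1.01 (0.963 to 1.06) for all genes. Summed over the 44, DCA held 215990 reads and NC 235730, which is a ratio of 0.959 (0.953 to 0.965) after scaling to the read totals, and 0.972 (0.966 to 0.977) without Fen1.

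Only Fen1 and Gins1 were at least 1.2-fold lower on the scale of FPKM + 1, which is 4.55% of the 44 against 0.715% of all genes, and no member was at least 1.2-fold higher, against 2.11%. Fen1 was also the only member past 1.5-fold, a size reached on the lower side by 0.155% and on the higher side by 0.342% of all genes. The counting interval lay below 1 for 15 members (34.1%, against 20.1% of all genes) and above 1 for 7 (15.9%, against 25.6%). It held 1 for the other 22. A ratio of at most 1/1.1 with an interval below 1 was seen for 5 members (Fen1, Gins1, E2f1, Cdc45 and Mcm6) where 7.68% of all genes had one, and a ratio of at least 1.1 with an interval above 1 for another 5 (Gins3, Prim2, Gins4, Dut and Pola1) where 11.8% had one. These are shares of 44 genes that are regulated together, in a single pair of libraries.

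**Figure D1:**
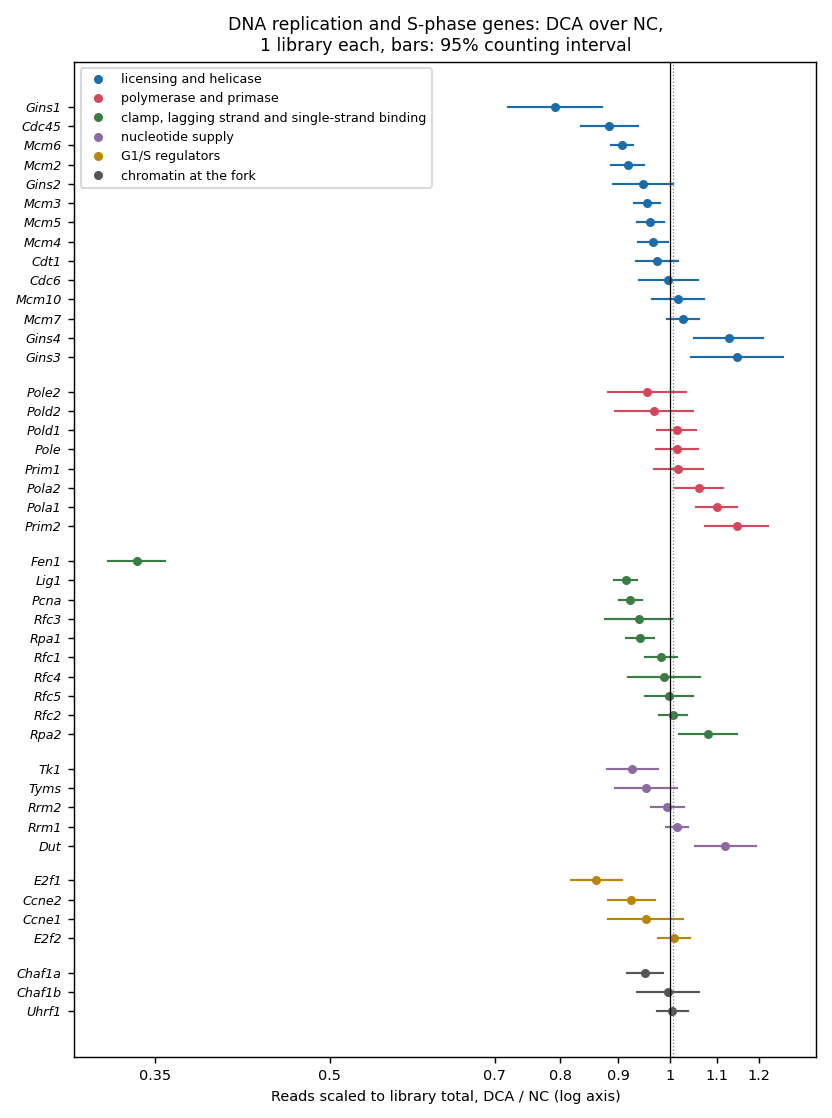
Ratio of reads in DCA over NC, scaled to the library totals (horizontal log axis), for each of the 44 genes, grouped and coloured by role; bars are 95% counting intervals, the solid line marks 1 and the dotted line the median ratio of all tested genes (1.01). Fen1 stands alone at 0.337, the next lowest is Gins1 at 0.791, and the highest are Gins3 and Prim2 at 1.15.

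Reads per kilobase of merged exons and 1e6 reads (merged-exon level below) allow levels to be set side by side between genes, because the deposited FPKM divides by the summed length of all transcripts of a gene. On this scale Pcna had the highest level of the 44 in both libraries, at 103 in DCA and 112 in NC. It was followed by Lig1, Mcm6 and Mcm3, at 60.0, 58.5 and 51.9 in NC and in the same order in DCA. The lowest levels in NC were those of Prim2, Gins3 and Tyms, at 5.16, 5.37 and 5.64. Fen1 was 8th in NC and 28th in DCA, and none of the other 43 moved by more than 4 places.

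**Figure D2:**
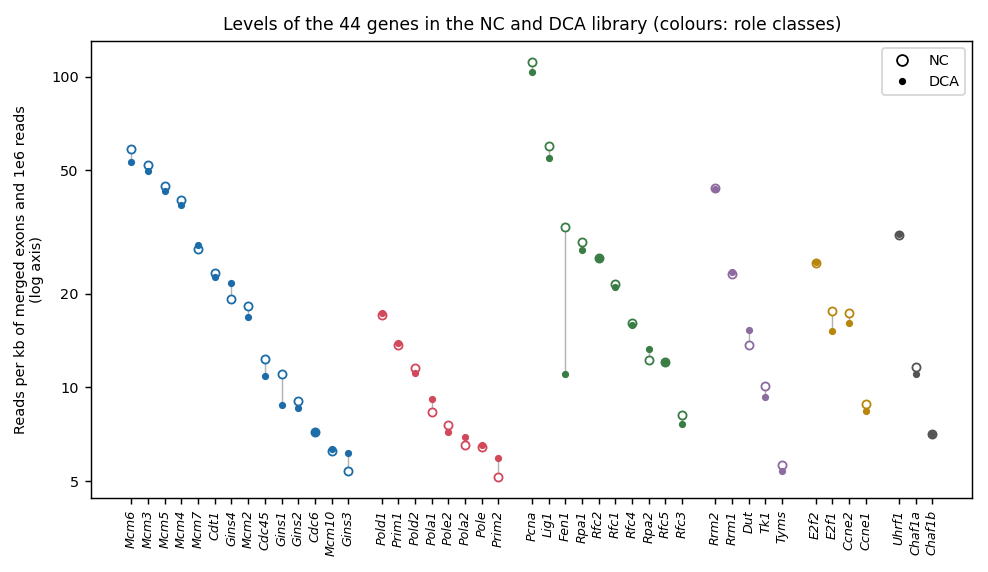
Level of each of the 44 genes in reads per kilobase of merged exons and 1e6 reads (vertical log axis), open circles for NC and filled circles for DCA, coloured by role. The circles nearly coincide for most genes, Pcna is highest at 103 and 112, and Fen1 is the one gene with a wide gap, at 11.0 in DCA and 32.7 in NC.

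Among the 14 licensing and helicase genes, 10 were lower in DCA, with a median FPKM ratio of 0.964. The 6 genes of the MCM ring, the motor that unwinds DNA, leaned to lower values: 5 of the 6 were lower and each of those 5 had an interval below 1. Mcm6 (ENSMUSG00000026355, GRCm38 chromosome 1, 128331590 to 128359664, minus strand) had 29.7 FPKM with DCA and 32.8 without, from 14004 and 16161 reads, a ratio of 0.907 (0.887 to 0.928). Mcm2 had 12.5 and 13.7 FPKM, a ratio of 0.918 (0.888 to 0.948). The other lower genes of the ring were closer to equality. Mcm3 had 21.4 and 22.4 FPKM, a ratio of 0.955 (0.930 to 0.980). Mcm5 had 17.1 and 17.8 FPKM, a ratio of 0.961 (0.935 to 0.988), and Mcm4 had 29.7 and 30.7 FPKM, a ratio of 0.967 (0.937 to 0.997). Mcm7 went the other way by a small amount, with 11.9 FPKM with DCA and 11.6 without and a ratio of 1.03 (0.994 to 1.06) whose interval holds 1. Exons of Cops6, Ap4m1 and the microRNA genes Mir25 and Mir93 cover 12.6% of its exonic bases. Summed over the ring, the reads numbered 55834 with DCA against 61575 without, a ratio of 0.949 (0.938 to 0.960).

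The loaders of the ring and Mcm10 had intervals that hold 1. Cdc6, the ATPase that recruits it to origins, had 2.97 FPKM with DCA and 2.98 without, a ratio of 0.997 (0.939 to 1.06). Cdt1, its partner in loading, had 10.4 and 10.7 FPKM, a ratio of 0.974 (0.933 to 1.02). Mcm10, which acts when the helicase is switched on and is not part of the ring, was at 2.67 and 2.63 FPKM, a ratio of 1.02 (0.964 to 1.07). At this depth no difference could be detected for these 3 genes.

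The factors that activate the ring were split. Cdc45 (ENSMUSG00000000028, chromosome 16, 18780447 to 18811987, minus strand) had 6.15 FPKM with DCA and 6.96 without, from 2159 and 2557 reads, a ratio of 0.884 (0.834 to 0.936), and exons of Ufd1 cover 5.96% of its exonic bases. The 4 subunits of GINS, which bind the ring in equal numbers, lay on both sides of 1. Gins1 (ENSMUSG00000027454, chromosome 2, 150905400 to 150931280, plus strand) had 4.97 FPKM with DCA and 6.28 without, from 752 and 995 reads, a ratio of 0.791 (0.719 to 0.870) and a difference of -0.29 in log2(FPKM + 1). No exon of another gene overlaps Gins1. Gins2 was at 4.11 and 4.34 FPKM, a ratio of 0.946 (0.890 to 1.01), and exons of Gse1 cover 67.3% of its exonic bases. Gins3 (ENSMUSG00000031669, chromosome 8, 95633453 to 95645060, plus strand) was higher in DCA, at 5.25 against 4.58 FPKM and 943 against 861 reads, a ratio of 1.15 (1.04 to 1.26). Gins4 (ENSMUSG00000031546, chromosome 8, 23226616 to 23237659, minus strand) was higher as well, at 21.7 and 19.2 FPKM from 1654 and 1535 reads, a ratio of 1.128 (1.05 to 1.21). The differences offset each other, so that the summed reads of the complex, 5335 with DCA against 5587 without, had a ratio of 0.999 (0.962 to 1.04). The GINS genes rest on 752 to 2196 reads a library, fewer than the 6614 to 16161 of the MCM ring, and their intervals are wider.

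The polymerase genes leaned the other way from the ring, with 6 of 8 higher in DCA and a median FPKM ratio of 1.02. The lean came from polymerase alpha-primase, which makes the RNA-DNA primers, where 4 of 4 genes were higher and 3 had an interval above 1. Prim2 (ENSMUSG00000026134, chromosome 1, 33453810 to 33669795, minus strand), the large primase subunit, had 5.36 FPKM with DCA and 4.67 without, from 1986 and 1814 reads, a ratio of 1.15 (1.07 to 1.22). Pola1 (ENSMUSG00000006678, chromosome X, 93304767 to 93632155, minus strand), the catalytic subunit, had 7.87 and 7.15 FPKM from 4566 and 4342 reads, a ratio of 1.101 (1.06 to 1.15). Pola2, the accessory subunit, had 2.84 and 2.68 FPKM, a ratio of 1.06 (1.01 to 1.12). Prim1, the primase catalytic subunit, had 6.88 and 6.76 FPKM, and its ratio of 1.02 (0.968 to 1.07) includes equality. No exon of another gene overlaps any of these 4. Their summed reads numbered 12860 with DCA against 12504 without, a ratio of 1.08 (1.05 to 1.103).

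Of the polymerase delta and epsilon genes, 4 are among the 44, and each had an interval that holds 1. Pold1 and Pole, the catalytic subunits, had 5.67 and 3.74 FPKM in DCA and 5.59 and 3.69 in NC, and both ratios were 1.01. Of the accessory subunit genes, Pold2 had 5.34 and 5.51 FPKM, a ratio of 0.969 (0.895 to 1.05). Pole2 had 4.05 and 4.24 FPKM, a ratio of 0.954 (0.881 to 1.03). Summed over the 4, the ratio was 1.003 (0.977 to 1.03). The small subunit genes Pold3, Pold4, Pole3 and Pole4 belong to the further replication genes, and of these Pole4 had an interval above 1, at 1.109 (1.05 to 1.18).

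**Figure D3:**
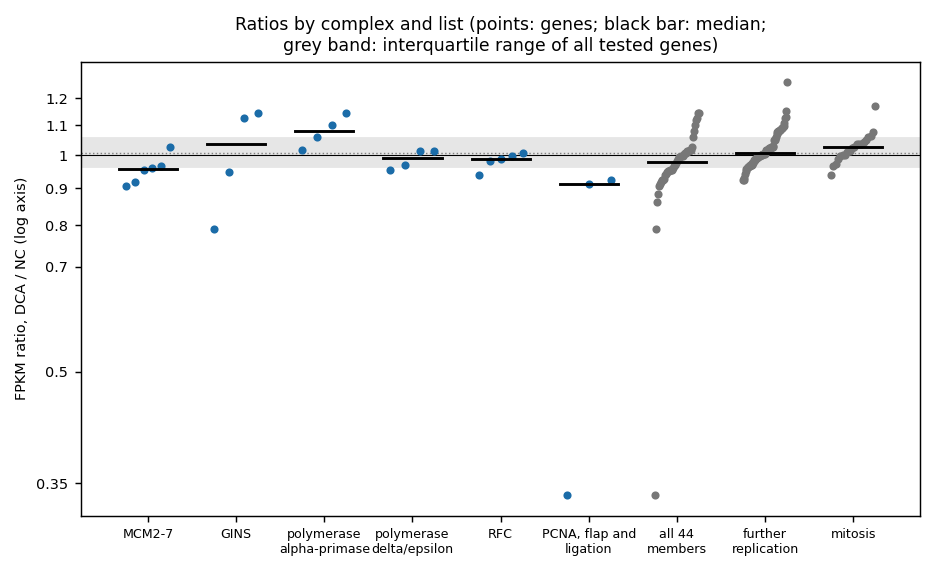
FPKM ratio of DCA over NC (vertical log axis) for the genes of 6 complexes or steps, for all 44 members, for 68 further replication genes and for 20 mitosis genes; points are genes, black bars medians, the dotted line the median and the grey band the interquartile range (0.963 to 1.06) of all tested genes. The MCM ring lies mostly below 1, the 4 polymerase alpha-primase genes lie above it, and the GINS genes are spread from 0.791 to 1.15.

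The sequence upstream of members that lay on opposite sides of 1 is shown because E2F is the factor these genes share. RefSeq promoter windows (GRCm38.p6, 300 bases, from 250 before to 50 after the start) were matched by symbol for 36 members, in 43 windows. They were searched on both strands for TTTCCCGC, TTTCGCGC, TTTGCCGC and TTTGGCGC, the 8-letter forms of the E2F site, with overlapping matches counted. At least 1 window held such a match for 14 of the 36 (38.9%), against 5.02% of the 7784 genes with a window that passed the filter. Counted by window, it was 32.6% of the 43 against 2.26% of all 32851. Matches did not separate lower from higher members. The 14 had a median ratio of 0.986, with 8 lower and 6 higher, and the 22 without a match had 0.976, with 16 lower and 6 higher. Below are the 200 bases upstream of the RefSeq start, on the gene's strand, of Mcm6 and Mcm5 of the ring, which were lower in DCA, and of Gins3 and Pola1, which were higher, with E2F matches in capitals.
Mcm6 (chr1:128359706-128359905, minus strand): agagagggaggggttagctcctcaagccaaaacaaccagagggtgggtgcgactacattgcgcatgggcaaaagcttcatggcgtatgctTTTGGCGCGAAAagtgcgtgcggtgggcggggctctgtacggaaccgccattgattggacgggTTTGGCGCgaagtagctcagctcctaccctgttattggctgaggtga
Mcm5 (chr8:75109309-75109508, plus strand): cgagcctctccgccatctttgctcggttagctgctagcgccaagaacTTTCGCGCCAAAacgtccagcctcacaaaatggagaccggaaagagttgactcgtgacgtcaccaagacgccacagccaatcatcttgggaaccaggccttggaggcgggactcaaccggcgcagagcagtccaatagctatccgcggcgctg
Gins3 (chr8:95633359-95633558, plus strand): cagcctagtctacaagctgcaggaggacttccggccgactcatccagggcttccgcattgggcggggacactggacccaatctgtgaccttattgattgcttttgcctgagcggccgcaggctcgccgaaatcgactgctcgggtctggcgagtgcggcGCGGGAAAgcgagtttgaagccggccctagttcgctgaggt
Pola1 (chrX:93632156-93632355, minus strand): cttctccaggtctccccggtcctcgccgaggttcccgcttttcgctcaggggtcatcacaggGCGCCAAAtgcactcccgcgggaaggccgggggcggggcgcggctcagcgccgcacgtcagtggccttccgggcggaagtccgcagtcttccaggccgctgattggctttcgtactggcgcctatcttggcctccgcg
In Mcm6 a pair of matches overlaps at 110 and 106 bases before the start and another match lies 47 bases before it. In Mcm5 a pair overlaps at 153 and 149 bases before the start. Pola1 and Gins3 hold 1 match each, at 138 and 41 bases before it. The genes printed were taken from the 14 members with a match, 8 lower and 6 higher, so their matches and the number of matches follow from that choice. Of the others, Mcm3 and Rfc3, which were lower, and Mcm7, which was higher, held 2 in a window. Lig1, Cdc6, Cdt1 and Pole2, which were lower, and E2f2, Pold1 and Uhrf1, which were higher, held 1. Windows of E2f1, Pcna and Fen1 held none of the 4 forms, which says only that these letters are not in those windows. The E2f1 window (154569377 to 154569676) lies inside the annotated gene, which starts at 154569892 on the minus strand. Those of Cdc6 and Dut and both windows of Mcm7 lie inside their genes as well. For these genes the sequence just before the annotated start was not searched, though E2f1 and Dut count among the 22 without a match. Fen1 is also among the 22. Its windows (10203872 to 10204171 and 10204344 to 10204643) leave a gap just before its annotated start at 10204169. The CCAAT box was found in 58.3% of the 36 members against 43.3% of those 7784 genes, and the CHR (TTTGAA or TTCGAA), an element of genes of later cell cycle phases, in 22.2% against 16.7%.

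Of the 10 genes of the clamp, the lagging strand and single-strand binding, 8 were lower in DCA, with a median FPKM ratio of 0.962. Pcna (ENSMUSG00000027342, chromosome 2, 132249162 to 132253314, minus strand), the ring that holds polymerases on DNA, had 55.0 FPKM with DCA and 59.6 without, from 13999 and 15881 reads, a ratio of 0.923 (0.902 to 0.944). Lig1 (chromosome 7, 13277283 to 13311433, plus strand), the ligase that seals Okazaki fragments, had 8.96 and 9.80 FPKM, a ratio of 0.914 (0.892 to 0.935). Its read numbers are estimates, since it is the 1 member whose values did not come out as whole reads. The clamp loader RFC was close to equal, with an interval that holds 1 for each of its 5 genes. Rfc1, the large subunit, had 6.001 and 6.11 FPKM, a ratio of 0.982 (0.951 to 1.01). Among the small subunits, Rfc2 had 18.6 and 18.5 FPKM (ratio 1.01), Rfc3 3.52 and 3.75 (ratio 0.938), Rfc4 5.66 and 5.73 (ratio 0.988) and Rfc5 6.11 and 6.12 (ratio 0.998). Their summed reads with those of Rfc1 had a ratio of 0.991 (0.973 to 1.01). The single-strand binding genes parted, with Rpa1 at 14.0 and 14.8 FPKM, a ratio of 0.941 (0.914 to 0.969), and Rpa2 at 8.36 and 7.74 FPKM, a ratio of 1.08 (1.02 to 1.15).

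Fen1 encodes the flap endonuclease that trims the displaced 5′ end of an Okazaki fragment before ligation. It had 2.98 FPKM with DCA and 8.84 without, from 1512 and 4692 reads, a ratio of 0.337 (0.318 to 0.357). Its difference of -1.31 in log2(FPKM + 1) was the 7th lowest of the 9656 genes. Pcna and Lig1, which work with it at the same junction, were lower by less than 10%. Fen1 (ENSMUSG00000024742, chromosome 19, 10199132 to 10204169, minus strand) shares most of its exonic sequence with other genes. Out of 2422 exonic bases, Gm10143, an annotated antisense gene on the plus strand (10198368 to 10202384), has exons over 1909 (78.8%), and exons of Tmem258 cover 130. Tmem258 too is on the plus strand (10204014 to 10207824). This leaves 383 bases (15.8%) to Fen1 alone, and all 1140 coding bases of Fen1 lie in the Gm10143 overlap. The sources used here do not state the strand setting of the counting, so reads of Fen1 and Gm10143 may not have been told apart, or reads in the overlap may have been left out. Gm10143 was not analysed here. Tmem258 was close to equal, with 1585 reads in DCA against 1591 in NC and a ratio of 1.04 (0.972 to 1.12).

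**Figure D4:**
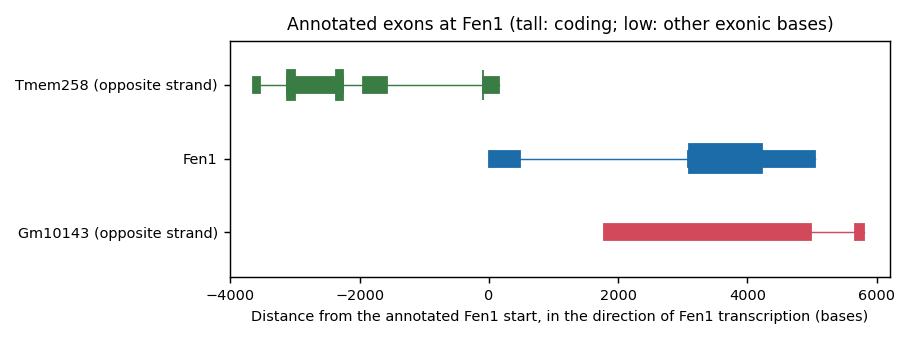
Annotated exons of Fen1, Gm10143 and Tmem258, placed by distance in bases from the annotated Fen1 start in the direction of its transcription; tall boxes are coding bases, low boxes other exonic bases and lines introns. The whole coding part of Fen1 (1140 bases) lies inside the long exon of Gm10143, and Tmem258 overlaps only the start (130 bases).

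Overlap moved with large differences across the table. Of the 203 genes with at least 50% of their exonic bases in exons of other genes, 51 (25.1%) were at least 1.2-fold apart in either direction, against 2.67% of the 6019 genes with no such base and 1.72% of the 3422 with some. At least 2-fold differences were found in 17 of the 203 (8.37%) and in 4 of the 6019 (0.0665%). Of the 44 members, 30 had no overlapped exonic base, 11 had some and 3 at least 50%. Those 3 were Fen1, Gins2 and Chaf1a, of which only Fen1 was past 1.2-fold. The part of the overlap in the Fen1 value was not tested. Over the 30 members with no overlap, 17 were lower and the median FPKM ratio was 0.996, and over the 14 with overlap 11 were lower and the median was 0.949.

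**Figure D5:**
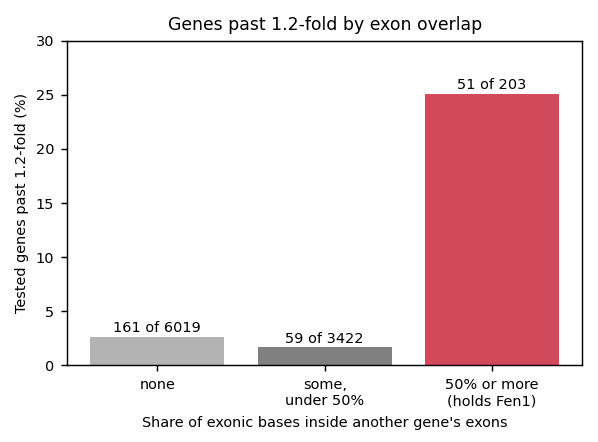
Percent of tested genes at least 1.2-fold apart in FPKM + 1 in either direction (vertical axis, from 0), by the share of a gene's exonic bases that lie in exons of other genes; numbers above the bars are genes past the limit and genes tested. The share is 25.1% in the class that holds Fen1 and below 3% in the other classes.

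The 5 nucleotide supply genes showed no shared direction, with 3 lower and 2 higher and a ratio of 1.003 (0.987 to 1.02) for their summed reads. Rrm1 and Rrm2, the subunits of the S-phase ribonucleotide reductase, which makes deoxynucleotides, had intervals that hold 1. Rrm1 had 20.1 FPKM with DCA and 19.8 without, a ratio of 1.02 (0.992 to 1.04), and Rrm2 had 26.5 and 26.6, a ratio of 0.995 (0.962 to 1.03). Rrm2b, the p53-inducible small subunit and one of the further replication genes described below, was at 1.08 (1.01 to 1.15). Tk1, thymidine kinase of the salvage route, was lower at 6.33 and 6.83 FPKM, a ratio of 0.927 (0.880 to 0.976). Tyms, thymidylate synthase of the de novo route, had 2.42 and 2.54 FPKM, a ratio of 0.953 (0.894 to 1.02). Dut (ENSMUSG00000027203, chromosome 2, 125247190 to 125258608, plus strand), the dUTPase that keeps uracil out of DNA, was higher at 11.5 and 10.3 FPKM, from 2089 and 1953 reads, a ratio of 1.12 (1.05 to 1.19).

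Of the 4 G1/S regulators, 3 were lower in DCA. E2f1 (ENSMUSG00000027490, chromosome 2, 154559407 to 154569892, minus strand), an activator of S-phase genes, had 8.70 FPKM with DCA and 10.1 without, from 2701 and 3283 reads, a ratio of 0.861 (0.818 to 0.906). Only Fen1 and Gins1 had lower ratios among the 44, and no exon of another gene overlaps it. E2f2, the related activator, did not share that difference, with 24.0 and 23.8 FPKM and a ratio of 1.01 (0.976 to 1.04). The cyclin E genes, whose products bind CDK2, were at 5.22 and 5.64 FPKM for Ccne2, a ratio of 0.924 (0.881 to 0.970), and at 5.14 and 5.40 for Ccne1, a ratio of 0.952 (0.881 to 1.03) that includes equality. Exons of Ints8 cover 17.4% of the exonic bases of Ccne2. The merged-exon level of E2f2 was 25.4 in DCA and 25.1 in NC, above that of E2f1 at 15.1 and 17.6.

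Of the 3 chromatin factors of the fork, Chaf1a had an interval below 1 and the other two had intervals that hold 1. Uhrf1, which guides maintenance DNA methylation, had 8.39 and 8.35 FPKM, a ratio of 1.005 (0.973 to 1.04). Of the subunits of chromatin assembly factor 1, which places histones on new DNA, Chaf1b had 3.73 and 3.74 FPKM, a ratio of 0.996 (0.935 to 1.06), and Chaf1a was at 0.951 (0.917 to 0.986). Chaf1a had 7.02 FPKM with DCA and 7.38 without, and exons of Ubxn6 cover 52.5% of its exonic bases.

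A list of 68 further genes of replication and the G1/S passage did not share the lower lean. All 68 passed the filter, and none was past 1.2-fold in FPKM + 1 in either direction. In DCA 27 were lower and 41 higher, with a median FPKM ratio of 1.01 that equals the value for all genes at this rounding. The interval lay above 1 for 18 and below 1 for 5 of the 67 with rebuilt reads, where 25.6% and 20.1% of all genes had one. The lowest differences were those of Rpa3, the small RPA subunit, at a ratio of 0.924 (0.828 to 1.03), Mcmbp, which binds MCM proteins, at 0.931 (0.902 to 0.961), and the origin recognition gene Orc6 at 0.941 (0.884 to 1.001). The highest were those of Dscc1, a subunit of an alternative clamp loader, at 1.26 (1.11 to 1.44) from 497 and 412 reads, and of the CDK4 and CDK6 inhibitors Cdkn2d and Cdkn2c, at 1.15 (1.08 to 1.23) and 1.132 (1.06 to 1.21). Cdkn2d had 10.8 FPKM with DCA and 9.41 without, and Cdkn2c 9.34 and 8.25.

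Genes of mitosis, the later phase of the cycle, were higher in 15 of 20, where 53.5% of all genes were higher, with a median FPKM ratio of 1.03 against 1.01, and none was past 1.2-fold. Of the 19 with rebuilt reads, 6 had an interval above 1, 1 had one below it, and 12 had one that holds 1. Among all genes, 25.6% had an interval above 1 and 20.1% one below it. Kif20a, a kinesin of cytokinesis, had the highest difference, at 4.24 FPKM with DCA and 3.62 without and a ratio of 1.17 (1.12 to 1.23). Exons of Cdc23 cover 29.3% of its exonic bases. Ccnb2 followed at 1.08 (1.02 to 1.14) and Cdc20 at 1.06 (0.996 to 1.133). The lowest were Cdk1 at 0.940 (0.899 to 0.983), Birc5 at 0.967 (0.919 to 1.02) and Cenpf at 0.973 (0.928 to 1.02). Over the 20 genes the reads numbered 138601 with DCA against 141232 without, a ratio of 1.03 (1.02 to 1.03). Mki67 and Top2a held 40173 and 30102 of the DCA reads. For the 44 replication genes the ratio of summed reads was 0.959, or 0.972 without Fen1.

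Markers of several cell types also differed between the libraries, and cells of these types can cycle to a different extent. All 12 markers of macrophages were present, with a median FPKM ratio of 0.952, and 9 of 12 were lower in DCA. Their summed level was 10860 FPKM with DCA against 10765 without, most of it from Lyz2 at 9803 and 9669, which was higher by a ratio of 1.014 (1.011 to 1.017). Csf1r, the M-CSF receptor, had 90.2 FPKM with DCA and 92.3 without. Neutrophil markers were higher in 12 of 12, with summed levels of 4081 and 3432 FPKM and a median ratio of 1.18. B-lineage markers were higher in 8 of 8 that passed the filter, with a median ratio of 1.204. The summed levels over all 10 listed were 183 and 147. Below the filter, Igll1 was lower at 0.204 and 0.418 FPKM, a ratio of 0.488 (0.317 to 0.739). Vpreb1, also below it, was higher at 0.3595 and 0.1789 FPKM. Eosinophil markers were higher in 4 of 4, with summed levels of 107.8 and 73.6 and a median ratio of 1.41. Dendritic cell markers were higher in 4 of 4 that passed the filter, and the interval of Flt3 among them held 1. Their summed levels over all 6 were 127.7 and 102.6, most of it from Ly6d at 98.4 and 80.3. Zbtb46 and Xcr1, below the filter, were lower at 0.935 (0.813 to 1.08) and 0.669 (0.378 to 1.16). Of the progenitor markers 4 of 5 were higher, with summed levels of 22.7 and 21.7. Myb, a transcription factor of dividing progenitors, was at 1.104 (1.07 to 1.14), the only 1 of the 5 with an interval above 1. The intervals of the other 4 held 1, with Cd34 at 1.003, Gata2 at 1.03 and Flt3 at 1.05. Kit was lower, at 2.39 FPKM with DCA and 2.51 without. Flt3 is also counted among the dendritic cell markers, and Kit and Gata2 among those of mast cells and basophils. Of 5 mast cell and basophil markers, 4 were higher, with sums of 19.6 and 17.7. Nkg7 of T and NK cells was at 1.95 and 1.59 FPKM, while Cd3e stayed below 0.06 and Cd3d was listed at 0.112 in DCA and 0 in NC. The erythroid markers and the stromal markers each summed to less than 0.22 FPKM in either library, and Dcn and Pdgfra were listed at 0 in both. The part of cell composition in the values of the replication genes was not tested, and in bulk RNA fewer cells of a type and less RNA per cell cannot be told apart.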

How the data were processed

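RNA was sequenced from 2 cultures of mouse BMDMs, 1 library with and 1 without deoxycholic acid. The authors deposited FPKM values for 15576 genes. Per the submitters' processing notes, the build was GRCm38 and the tools included HTSeq 0.6.0, STAR 2.5.0c, DESeq2 3.0, bedtools 2.17.0 and Picard 1.126. The sources used here do not state the gene length, the strand setting or any filter. In all, 15548 identifiers were matched to GENCODE vM21, which gave 1-based coordinates and exon overlaps, counted on either strand. Each column was matched to its library by name.

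With the summed length of all transcripts as gene length, the FPKM of both libraries gave whole reads, to within 0.05, for 11371 (96.4%) of the 11794 genes under 5000 reads, where chance gives 1%. The read totals were 56.6 M in DCA and 59.2 M in NC, with M for 1e6 reads. Of the 44 members, 43 gave whole reads. Summed transcript lengths make the FPKM of genes with many transcripts too low, so levels of the members are compared between genes only per kilobase of merged exons. The FPKM sums of the cell type markers keep this fault, and genes with many transcripts weigh too little in them.

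The difference was log2(FPKM + 1), DCA minus NC, for the 9656 genes whose mean was 1 FPKM or more. This scale understates the change of low genes. A limit of 1.2-fold on it was used for counts. Read ratios were scaled to the read totals, with exact Clopper-Pearson 95% intervals. They describe 2 libraries, and PCR copies are not independent molecules. The scripts were tested on simulated data (python 3.11.15, scipy 1.17.1). All 44 members are named. Of the further and mitosis lists, genes past 1.2-fold or else the 3 highest and 3 lowest differences are named. Other genes named (Rrm2b, the small polymerase subunits, Csf1r, Lyz2, Myb, Nkg7 and other single cell type markers, some near 0) were picked once their values had been seen. The members and lists were chosen with earlier results of these data known. Alternatives were other pseudocounts, filters, scalings and gene sets.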

Additional observations from a re-analysis of the deposited data

How the results depend on the processing

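No paired analysis was possible because each group has 1 library and the groups share only 1 replicate number. For the 44 replication genes, the count at least 1.2-fold lower in DCA was 1 in place of 2 with a pseudocount of 5, where Gins1 was at -0.18 and Fen1 at -0.79, and it was 1 without genes whose exons overlap another gene, where Fen1 was left out. In that last setting 30 members were left and 17 of them were lower, against 28 of 44. The ratio of the summed reads was 0.9716 without Fen1, against 0.9589, a setting chosen after seeing the data. In the other settings (pseudocount 0.1, no filter, a mean FPKM of at least 5, each library rescaled to 1e6, DCA scaled to a median ratio of 1, ratios without pseudocount and, chosen after seeing the data, merged-exon levels) the count past 1.2-fold stayed at 2 lower, and no setting had a member at least 1.2-fold higher. The median difference of the members ranged from -0.0439 to -0.0057. In every setting that measured them, 41 of 44 kept their direction, and E2f2, Rfc2 and Uhrf1, whose intervals hold 1, did not. Only rescaling a library can change the direction of a gene, so the other settings could not test this. Both rescalings lowered DCA against NC, so members already lower in DCA could not change. The medians of nucleotide supply, of the chromatin factors and of the further replication genes lay on both sides of 0 across settings. Over all genes, the count at least 1.2-fold lower was 69 and ranged from 17 (pseudocount 5) to 192 (no pseudocount), and the count at least 1.2-fold higher was 204 and ranged from 54 to 392 in the same settings. Depth left a median half-width of 4.90% of the ratio for the members, so differences of a few percent in single genes were often not detectable.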
